A study of Mus musculus with 3 samples.

Results

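Klrg1 and 6 further killer cell lectin-like receptor genes (Klrk1, Klrd1, Klrc1, Klrc2, Klre1 and Klrb1c) were followed in donor T cells after allogeneic bone marrow transplantation. These receptors were chosen by name, from a list and not by a cutoff on measured values, but with earlier results of these data known. The study had already reported Klrg1 as upregulated with cyclosporine in quiescent CD4+ clusters of these data. By flow cytometry it also reported more KLRG1 protein with higher-dose cyclosporine in donor CD4+ and CD8+ T cells and in transgenic alloreactive CD4+ T cells. High KLRG1 was still reported after the drug was withdrawn. All 7 were found in the count table, among 18029 genes. The cells came from the spleens of B6D2F1 recipients that had received total body irradiation, 5000000 B6 bone marrow cells, 2000000 B6 T cells and 1000 TEa T cells, which carry a transgenic T cell receptor for a recipient alloantigen. From day 0 to day 6, recipients were injected daily with saline or with cyclosporine A (CSA), a calcineurin inhibitor, at a dose of either 5 or 50 mg/kg, and spleens were taken on day 7. The age of the mice is not given in the sources used here. Each of the 3 groups held 6 mice, whose spleens were combined from 2 mice at a time into 3 pools, and the pools were marked with hashtag antibodies. CD4+ and CD8+ T cells were sorted, mixed at 1 to 1 and loaded as 1 droplet capture per group, so capture and treatment cannot be told apart, and the pools of a group are separate mice that share a capture.

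Killer cell lectin-like receptors are C-type lectin-like proteins of the cell surface that were first described on natural killer (NK) cells and that activated CD8+ T cells also carry. KLRG1 binds E-cadherin and N-cadherin and is inhibitory, and in CD8+ T cells it marks effector cells late in their differentiation. CD94 (Klrd1) pairs with NKG2A (Klrc1) as an inhibitory receptor, or with NKG2C (Klrc2) as an activating one, for Qa-1, the product of H2-T23. NKG2D (Klrk1) is an activating receptor that signals through DAP10 (Hcst) and binds stress-induced proteins of target cells. Klre1 encodes a partner of other NK receptors, and Klrb1c encodes NK1.1, an activating receptor of NK cells and NKT cells.

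All 7 genes lie on mouse chromosome 6 (GRCm38/mm10, GENCODE vM21), and each is annotated as protein-coding. Klre1 (chr6:129577905-129585827, plus strand), Klrd1 (chr6:129591782-129598775, plus), Klrk1 (chr6:129610323-129623864, minus), Klrc2 (chr6:129647496-129660689, minus) and Klrc1 (chr6:129666015-129678973, minus) are neighbours within 101.1 kb. Klrb1c (chr6:128778485-128789215, minus) starts 0.789 Mb from that block and Klrg1 (chr6:122270596-122282882, minus) 7.295 Mb from it. Of all 50-base stretches in the first 300 bases of Klrc2 transcripts, the end that 5′ libraries read, 58.1% also occur in transcripts of Klrc1 or Klrc3, against 0% for Klrc1. Counts of Klrc2 are therefore uncertain. For Klrb1c the share was 15.1%, with Klrb1a, Klrb1b, Klrb1-ps1 and Gm44511.

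The RefSeq promoter table (build GRCm38.p6) held 7 entries for 5 of the 7 genes. Sequences of 250 bases before the start site are shown for 2 genes that were higher in CD8+ T cells at 50 mg/kg and 2 that were lower. Capitals mark GGAAA or its reverse complement TTTCC, the core sequence bound by NFAT, which calcineurin activates. Klrg1 and Klrd1 are named only.
Klrk1, chr6:129623865-129624114, minus strand: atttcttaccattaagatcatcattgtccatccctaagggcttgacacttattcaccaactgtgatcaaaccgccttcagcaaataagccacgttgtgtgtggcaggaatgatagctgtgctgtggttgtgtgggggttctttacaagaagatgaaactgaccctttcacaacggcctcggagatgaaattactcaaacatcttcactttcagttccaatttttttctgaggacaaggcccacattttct
Klrc1, chr6:129678974-129679223, minus strand: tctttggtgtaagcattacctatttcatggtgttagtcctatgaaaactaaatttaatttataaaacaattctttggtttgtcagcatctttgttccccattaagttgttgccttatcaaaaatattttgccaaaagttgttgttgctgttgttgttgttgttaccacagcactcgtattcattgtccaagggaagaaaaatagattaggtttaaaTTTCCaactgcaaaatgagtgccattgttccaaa
Klrc2, chr6:129660597-129660846, minus strand: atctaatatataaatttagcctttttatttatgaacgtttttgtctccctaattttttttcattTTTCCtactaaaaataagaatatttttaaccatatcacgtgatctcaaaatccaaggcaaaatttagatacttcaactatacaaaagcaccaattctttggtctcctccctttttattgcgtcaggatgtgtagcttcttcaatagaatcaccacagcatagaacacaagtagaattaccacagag
Klrb1c, chr6:128788642-128788891, minus strand: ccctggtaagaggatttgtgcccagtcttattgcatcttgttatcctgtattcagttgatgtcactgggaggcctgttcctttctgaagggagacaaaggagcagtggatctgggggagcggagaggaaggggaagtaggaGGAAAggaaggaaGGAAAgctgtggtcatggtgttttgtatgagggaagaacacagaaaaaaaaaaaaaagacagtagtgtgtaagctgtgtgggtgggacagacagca
Both strands were searched. Klrk1 held 0 matches, Klrc1 and Klrc2 held 1 each and Klrb1c held 2. Klre1, also higher in CD8+ T cells at 50 mg/kg but not shown, held 1 in each of its 2 entries. Of 32851 promoters of this length, 55.6% held GGAAA. An AP-1 sequence, TGANTCA, found in 6.75% of all promoters, was in none of the 7 entries, and TCACAC (the core of a T-box site), found in 12.3%, was in 1 entry of Klre1.

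The deposited counts of unique molecular identifiers (UMIs) covered 21204 cells, of which the 280 marked as TEa cells were left out of the sums. Each pool then held between 3994968 and 7592334 UMIs in CD4+ T cells and between 4392100 and 11454636 in CD8+ T cells. Median UMIs per cell rose with dose, from 3097 with saline to 4396 and 5979.5 in CD4+ T cells, and from 4108 to 6121.5 and 7183 in CD8+ T cells. Every CD4+ cell had a Cd4 UMI and none had a Cd8a UMI, and the reverse held for CD8+ cells. Shares this exact would arise if cells had been assigned to a lineage by these transcripts, so they are no check of purity. Cd3e was between 949 and 1134 CPM (a gene's UMIs with every pool scaled to the same UMI total) in all pools. Of the markers that define NK cells, Ncr1 had at most 7 UMIs per lineage and group, Klra4 at most 1, and Klra8 at most 1 except for 23 in CD8+ T cells at 50 mg/kg. Summed over 15 NK cell genes, the level in CD4+ T cells was 1768 to 1956 CPM with saline, 1637 to 1676 at the lower dose and 1437 to 1532 at 50 mg/kg. The CD8+ level was 4077 to 4417, 4550 to 5024 and 3875 to 4026. Hemoglobin and other erythroid transcripts moved with the higher dose, from 3.21 to 17.9 CPM in saline pools to between 25.1 and 48.9 at 50 mg/kg, and their part in the results was not tested. Of the myeloid markers, 4 of 9 tested were higher at 50 mg/kg and 1 lower in CD4+ T cells, and 7 of 10 higher and 1 lower in CD8+ T cells. Their summed level was 170 to 233 CPM with saline and 154 to 262 at 50 mg/kg in CD4+ and 196 to 250 and 210 to 303 in CD8+ T cells, and their part was not tested either. Captures shared 75, 85 and 58 cell barcodes with each other.

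Klrg1 was the receptor with the largest rise at 50 mg/kg in both lineages. Levels are given as TMM-normalized CPM of the UMIs summed over the cells of a pool. In CD4+ T cells Klrg1 stood at 11.9, 15.6 and 14.0 CPM in the 3 saline pools, at 20.9, 19.0 and 16.2 at the lower dose and at 167, 164 and 133 at 50 mg/kg. The 3 pools given 50 mg/kg lay far above all 6 others, and the pools of the lower dose lay just above those of saline without overlap. The change at 50 mg/kg was 3.46 ± 0.10 (log2 ± SE, n = 3 pools per group), or 11.0-fold, with an adjusted p of 6.86e-17 by edgeR's quasi-likelihood test. At 5 mg/kg it was 0.39 ± 0.15 (adjusted p = 0.0389 in edgeR), a call that was lost in 9 of 21 alternative settings, among them leaving out either of 2 saline pools or either of 2 pools given 5 mg/kg. In such sums, more cells with the transcript and more transcripts per cell cannot be told apart.

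In CD8+ T cells, where Klrg1 is best known, it rose at 50 mg/kg, and its change at the lower dose did not pass the test. Klrg1 stood at 30.9, 30.6 and 23.9 CPM with saline, 16.5, 25.2 and 22.6 at the lower dose and 206, 216 and 113 at 50 mg/kg. Pools of saline and 5 mg/kg overlapped, while those of 50 mg/kg lay apart, with 1 pool well below the other 2. The change was 2.64 ± 0.19 on the log2 scale at 50 mg/kg (6.23-fold, adjusted p = 5.80e-10, edgeR) and -0.37 ± 0.26 at 5 mg/kg (adjusted p = 0.230). Between the doses Klrg1 differed by 3.07 in CD4+ and 3.01 in CD8+ T cells, and this comparison uses the same 50 mg/kg pools. Since 34.7% of all genes tested were called higher at 50 mg/kg in CD4+ T cells and 37.1% in CD8+ T cells, a call by itself was common in these data.

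**Figure D1:**
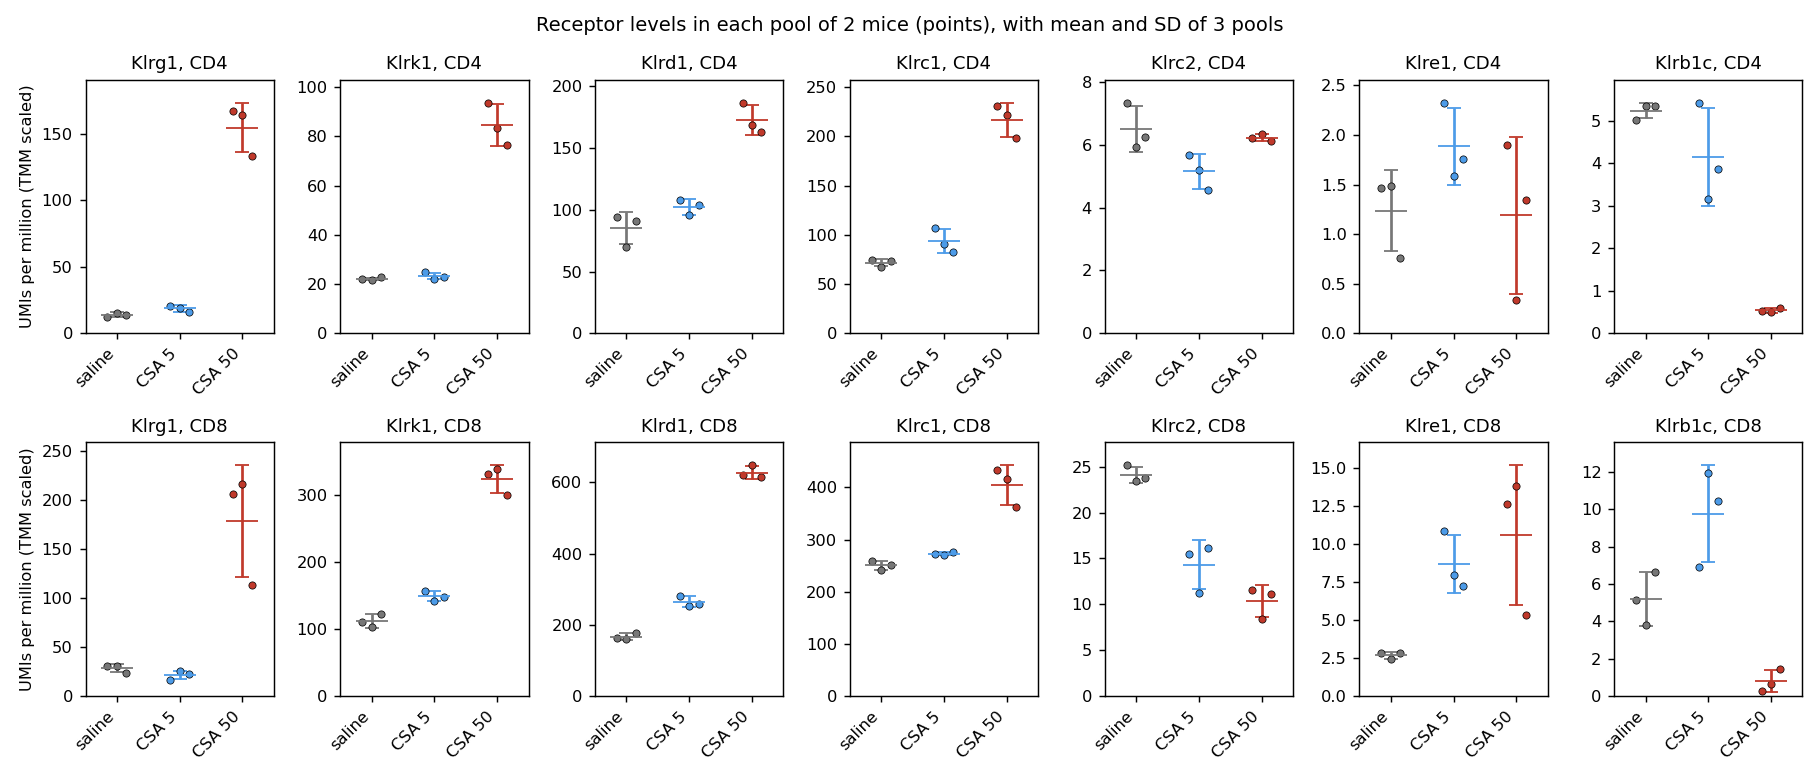
TMM-normalized CPM of each of the 7 receptor genes in CD4+ (upper row) and CD8+ T cells (lower row), with 1 point per pool and the mean ± SD of 3 pools per group. Klrg1 reached a mean of 155 CPM in CD4+ and 178 CPM in CD8+ T cells at 50 mg/kg, from 13.9 and 28.4 with saline, while Klrb1c fell to 0.538 and 0.790 CPM.

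The CD94 and NKG2A chains both rose at 50 mg/kg, in different proportion in the 2 lineages. Klrd1 in CD4+ T cells was at 94.0, 70.0 and 90.8 CPM with saline, 108, 95.6 and 103 at the lower dose and 186.5, 168 and 163 at 50 mg/kg. Among CD8+ T cells it was at 162, 161 and 178, then 282, 253 and 260, then 620.1, 647 and 615. The groups did not overlap in either lineage, and the step between doses was wider in CD8+ T cells. At 50 mg/kg Klrd1 rose by 1.03 ± 0.08 in CD4+ T cells (adjusted p = 2.29e-10, edgeR) and by 1.91 ± 0.05 in CD8+ T cells (3.76-fold, adjusted p = 6.26e-16). Klrc1 showed the opposite order. It went from 74.4, 67.8 and 73.3 CPM to 107, 90.4 and 82.9 and then 231, 222 and 198 in CD4+ T cells, a rise of 1.60 ± 0.07 at the higher dose (3.02-fold, adjusted p = 4.01e-14). The CD8+ levels went from 259, 242 and 252 CPM to 272, 270 and 276 and then 434, 417 and 361, a rise of 0.69 ± 0.05 (1.61-fold, adjusted p = 2.51e-09). The size of this CD8+ rise depended on scaling, from 0.16 to 0.76 over 19 settings. In CPM without TMM scaling, saline pools were at 322, 301 and 314. Those of 50 mg/kg were at 375, 362 and 309, so the groups overlapped.

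Klrc2, which encodes the activating partner of CD94, was lower in sums of CD8+ T cells at both doses, and its change in CD4+ T cells did not pass the test. Among CD8+ T cells it fell from 25.1, 23.4 and 23.7 CPM with saline to 15.5, 11.2 and 16.2 at the lower dose and 11.5, 8.36 and 11.1 at 50 mg/kg. The saline pools were above all others, and 1 pool of the lower dose lay inside the range of the higher dose. The change was -0.74 ± 0.13 at 5 mg/kg (adjusted p = 6.97e-05) and -1.21 ± 0.13 at 50 mg/kg (2.32-fold lower, adjusted p = 8.81e-08, edgeR). At 5 mg/kg the direction turned from -1.18 to 0.17 (log2 ratio of CPM) with cluster shares held at those of saline pools. Of 5 CD8+ clusters tested at that dose, Klrc2 was called higher in C4 (1.09 ± 0.32, adjusted p = 0.0442, edgeR, where 13.5% of all genes in those clusters were called higher) and lower in Tcf7hi C5 (-1.10 ± 0.38, adjusted p = 0.0227, against 12.4% called lower). The CD4+ level was between 4.57 and 7.33 CPM in all 9 pools, and the change of -0.05 ± 0.19 at 50 mg/kg did not pass the test (adjusted p = 0.836). These values carry the uncertainty from sequence shared with Klrc1 or Klrc3. Counts of Klrc1, for which 0% of stretches in its own first 300 bases were shared, moved the other way.

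Klrk1, the gene of NKG2D, rose at 50 mg/kg in both lineages. In CD4+ T cells Klrk1 was at 22.0, 21.7 and 22.7 CPM with saline, 24.8, 22.1 and 22.8 at the lower dose and 93.7, 83.6 and 76.6 at 50 mg/kg. The CD8+ levels were 110.5, 104 and 123, then 157, 142 and 149, then 331, 340.0 and 300.4. The CD8+ groups stood apart at every step, whereas in CD4+ T cells the saline pools and those of the lower dose overlapped. The rise at 50 mg/kg was 1.93 ± 0.08 in CD4+ (3.81-fold, adjusted p = 2.04e-14, edgeR) and 1.53 ± 0.06 in CD8+ T cells (2.88-fold, adjusted p = 1.86e-13). The rise of 0.41 ± 0.07 in CD8+ T cells at 5 mg/kg (adjusted p = 3.57e-05) became -0.017 when counts were scaled by library size. The CD4+ change at that dose was 0.07 ± 0.11 (adjusted p = 0.644), and the difference of 0.31 ± 0.11 between lineages did not pass (adjusted p = 0.122).

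Klre1 was scarce in CD4+ T cells, with 2 to 11 UMIs per pool, and did not pass the filter for the test there. Among CD8+ T cells it was at 2.81, 2.41 and 2.81 CPM with saline, 10.8, 7.96 and 7.27 at the lower dose and 12.6, 13.8 and 5.31 at 50 mg/kg. All 6 pools given CSA exceeded the saline pools, and both doses overlapped with each other. Klre1 was higher by 1.65 ± 0.33 at 5 mg/kg (3.14-fold, adjusted p = 0.000323) and by 1.94 ± 0.30 at 50 mg/kg (3.84-fold, adjusted p = 1.50e-05, edgeR).

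Klrb1c, the NK1.1 gene, was the receptor that fell furthest. In CD4+ T cells it was at 5.03, 5.34 and 5.34 CPM with saline, 5.42, 3.16 and 3.86 at the lower dose and 0.517, 0.501 and 0.597 at 50 mg/kg, the last from 3, 3 and 4 UMIs. In CD8+ T cells it was at 5.12, 3.82 and 6.67 CPM, then 6.90, 11.9 and 10.5, then 0.277, 0.664 and 1.43, the last from 2, 5 and 14 UMIs. Pools of 50 mg/kg lay below all others in both lineages, and in CD8+ T cells the pools of the lower dose lay above those of saline. The change at 50 mg/kg was -3.23 ± 0.35 in CD4+ T cells (9.37-fold lower, adjusted p = 5.20e-08, edgeR) and -2.59 ± 0.38 in CD8+ T cells (6.01-fold lower, adjusted p = 6.76e-06). At 5 mg/kg it was 0.94 ± 0.25 in CD8+ T cells (adjusted p = 0.00333, a call lost with library size scaling and without cycling clusters, where the change was 0.49) and -0.36 ± 0.25 in CD4+ T cells (adjusted p = 0.236). Genes of innate-like T cells, among which NK1.1 is also found, summed to between 81.6 and 94.6 CPM in CD4+ T cells with saline and between 16.8 and 24.1 CPM at 50 mg/kg, and between 162 and 186 CPM and between 135 and 145 CPM in CD8+ T cells. Their part in the fall of Klrb1c was not tested.

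By count, 5 of the 6 receptors tested were called at 50 mg/kg in CD4+ T cells, where 70.5% of all genes tested were called, and 7 of 7 in CD8+ T cells, where 74.0% were. In CD4+ T cells 4 were higher (34.7% of all genes) and 1 lower (35.8%), and in CD8+ T cells 5 were higher (37.1%) and 2 lower (36.9%). The lower dose gave 3 of 6 calls in CD4+ T cells (51.7%), each higher (26.1%), and 5 of 7 in CD8+ T cells (60.2%), with 4 higher (29.9%) and 1 lower (30.3%). The 3 calls in CD4+ T cells were Klrg1, Klrd1 (0.28 ± 0.09) and Klrc1 (0.37 ± 0.08), and none held with library size scaling, where Klrd1 turned to -0.081. Between the doses 5 of 6 were called in CD4+ T cells (41.2%), 4 higher (19.9%) and 1 lower (21.3%), and 6 of 7 in CD8+ T cells (41.0%), 4 higher and 2 lower (21.0%). The call for Klrc2 (-0.47 ± 0.15) was lost in 7 of 19 settings, among them DESeq2 and leaving out CSA 5 mg/kg replicate 1 or 3 or CSA 50 mg/kg replicate 2. The comparisons share pools, and the shares called at either dose against saline are near those of all genes.

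**Figure D2:**
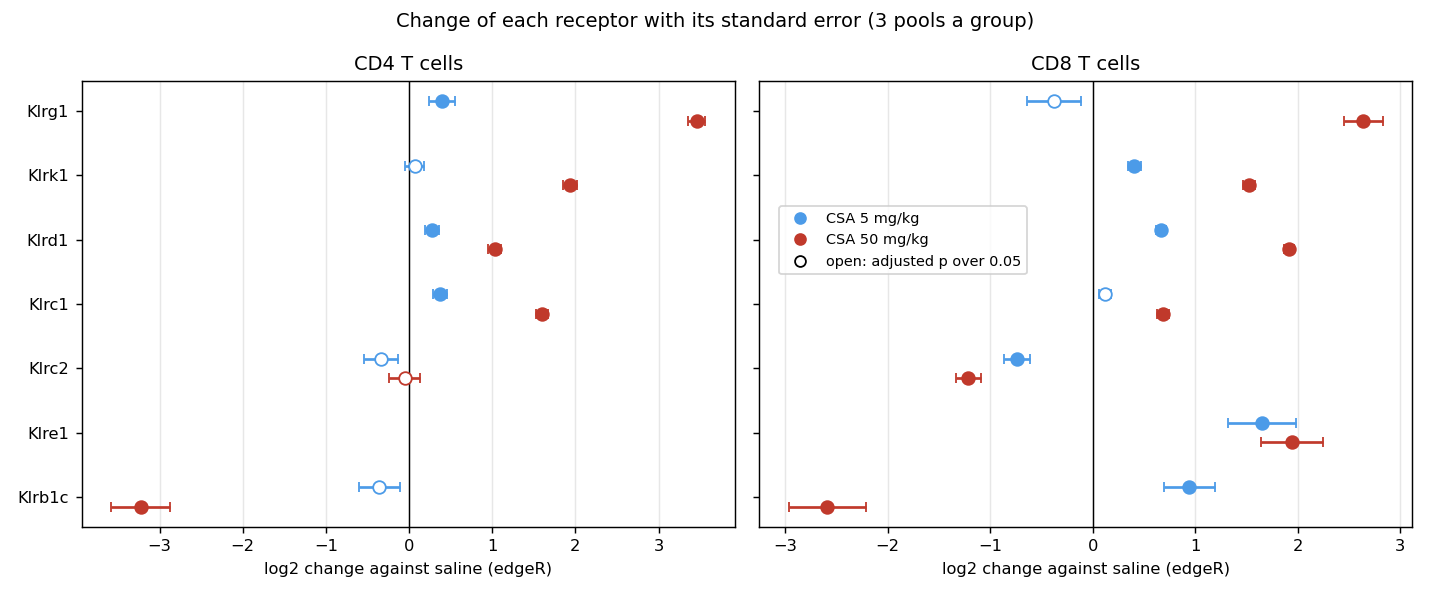
Log2 change ± SE of each receptor gene against saline at 5 and 50 mg/kg, by lineage, from edgeR on 3 pools per group, with open symbols where the adjusted p exceeds 0.05. Klrg1 shows the largest rise at 50 mg/kg (3.46 in CD4+ and 2.64 in CD8+ T cells) and Klrb1c the largest fall (-3.23 and -2.59).

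In saline pools most receptors were higher in CD8+ than in CD4+ T cells, and with CSA the levels of Klrg1 in both lineages lay closer together. Compared within pools, 6 of 7 receptors were called in saline (40.4% of all genes tested), each higher in CD8+ T cells. Klrk1 was 5.37-fold higher there (log2 2.42 ± 0.07), Klrc2 3.94-fold, Klrc1 3.70-fold and Klrg1 2.13-fold (1.09 ± 0.16, adjusted p = 4.81e-06, edgeR), while Klrb1c differed by 0.06 ± 0.23 (adjusted p = 0.874). At 50 mg/kg the excess of Klrg1 in CD8+ T cells was 0.22 ± 0.08 (adjusted p = 0.0320, edgeR). It was not found in every pool. In replicate 3 of that dose the CD4+ level was the higher one, at 118 against 96.6 CPM without TMM scaling. The excess of Klrd1 had widened to 1.92 ± 0.05 and that of Klre1 to 3.14 ± 0.30, and that of Klrc1 had narrowed to 0.95 ± 0.04. Klre1 had not passed the filter in CD4+ T cells alone, with 2 to 11 UMIs per pool, so its comparisons rest on few CD4+ counts. As a share of summed UMIs in the same pool, the CD4+ level of Klrg1 was 47.7% ± 9.95 (SD, n = 3) of the CD8+ level with saline, 92.3% ± 32.3 at the lower dose and 94.2% ± 24.1 at 50 mg/kg.

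The difference between lineages in the change at 50 mg/kg was called for 6 of 7 receptors (19.8% of all genes), and at 5 mg/kg for 3 of 7 (3.65%). The rise was smaller in CD8+ T cells by 0.87 ± 0.18 for Klrg1 (adjusted p = 0.00102, against -0.79 ± 0.25 and an adjusted p of 0.0808 at 5 mg/kg in edgeR), by 0.43 ± 0.09 for Klrk1 and by 0.93 ± 0.07 for Klrc1. It was larger in CD8+ T cells by 0.85 ± 0.08 for Klrd1 (adjusted p = 2.20e-08) and by 1.95 ± 0.57 for Klre1. The call for Klre1, counted among the 6, rests on 2 to 11 UMIs per CD4+ pool, where it had not passed the filter alone. Klrc2 fell by 1.19 ± 0.22 more in CD8+ than in CD4+ T cells. UMIs of Cd8b1, the CD8 beta chain, were found in 40.7% of CD4+ cells with saline, 35.4% at the lower dose and 13.6% at 50 mg/kg. Whether these UMIs came from free RNA in a capture was not tested, nor was their part in the differences between lineages. Without those cells, the change of Klrg1 in CD4+ T cells was 3.39 at 50 mg/kg and 0.03 at 5 mg/kg, where it was no longer called.

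Klrg1 was then followed through 13 deposited clusters of CD4+ and 9 of CD8+ T cells. Their names are those of the study, which for CD8+ clusters rest on a match by number order and markers. Most markers were highest where the names place them, for example Ccr7 and Lef1 in the naive clusters and Foxp3 in the regulatory cluster C11, while Tcf7, after which the CD4+ precursor-like cluster C2 is named, was higher in follicular helper cells (C4). Levels here are CPM of the summed UMIs of a cluster, without TMM scaling, as the mean ± SD over those pools in which the cluster held 10 or more cells. Since clusters were made on these cells, their order is a description. In 11 of the 13 CD4+ clusters, 2 or more saline pools qualified, which left out regulatory cells (C11) and C12, with 0 Klrg1 UMIs in 30 saline cells. Among these 11, the highest levels with saline were 29.3 ± 4.79 in cycling cluster C5, 24.5 ± 8.16 in cycling Cd226hi cells (C6), 23.7 ± 2.16 in Cd226hi effectors (C0) and 22.3 ± 7.05 in Cd226lo effectors (C1), which did not differ by more than their spread. The other 7 of the 11 lay between 3.02 and 10.3 CPM, and none of their neighbours in the order differed beyond the SD. Among CD8+ clusters, cycling C3 led at 49.6 ± 8.39 CPM, followed by C0, C2, C4, C6, C8 and C1, which differed from their neighbours by less than the spread. Tcf7hi cells (C5) held 5.96 ± 2.10 CPM. Naive cells (C7) had no Klrg1 UMI in 115 cells, which allows a share of cells with a UMI of up to 2.61%.

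At 50 mg/kg the mean of Klrg1 was above that of saline in all 11 CD4+ and all 8 CD8+ clusters that could be compared. Cd226hi effectors (C0) went from 23.7 ± 2.16 to 223 ± 41.8 CPM in CD4+ and from 40.0 ± 3.49 to 256 ± 42.8 in CD8+ T cells. Cd226lo effectors (C1) went from 22.3 to 107 ± 21.2 and from 23.8 to 120 ± 36.0. In the CD4+ CTL cluster (C7), 3 UMIs in 177 cells with saline became 129 UMIs in 148 cells, or 3.02 ± 3.24 and 109 ± 49.8 CPM. The level at 50 mg/kg was below that of these effectors in clusters of less differentiated cells. It was 13.4 ± 10.2 CPM in Tcf7hi precursor-like (C2) and 22.6 ± 25.6 in naive CD4+ T cells (C9), and 42.0 ± 2.78 in Tcf7hi (C5) and 15.6 ± 9.74 in naive CD8+ T cells (C7). In CD8+ C5 this was a 9.28-fold rise against saline (edgeR), to near the saline level of CD8+ C0. In the order at 50 mg/kg, CD8+ C0 stood above its neighbour by more than the spread, as did C8 above C5 and C5 above C7, whereas C3, C2, C1, C6 and C8 did not differ so. In the CD4+ order this held only for C0 above C5, C5 above C3 and C8 above C10.

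Regulatory T cells (C11) were the CD4+ cluster with most Klrg1 and were few. They held 11 Klrg1 UMIs in 20 cells with saline, 38 in 25 cells at the lower dose and 114 in 59 cells at 50 mg/kg, which is 157, 396 and 360 CPM over all pools. Fewer than 2 pools had 10 such cells with saline or 5 mg/kg, so no change was tested. The mean at 50 mg/kg was 384 ± 213 CPM (n = 3).

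**Figure D3:**
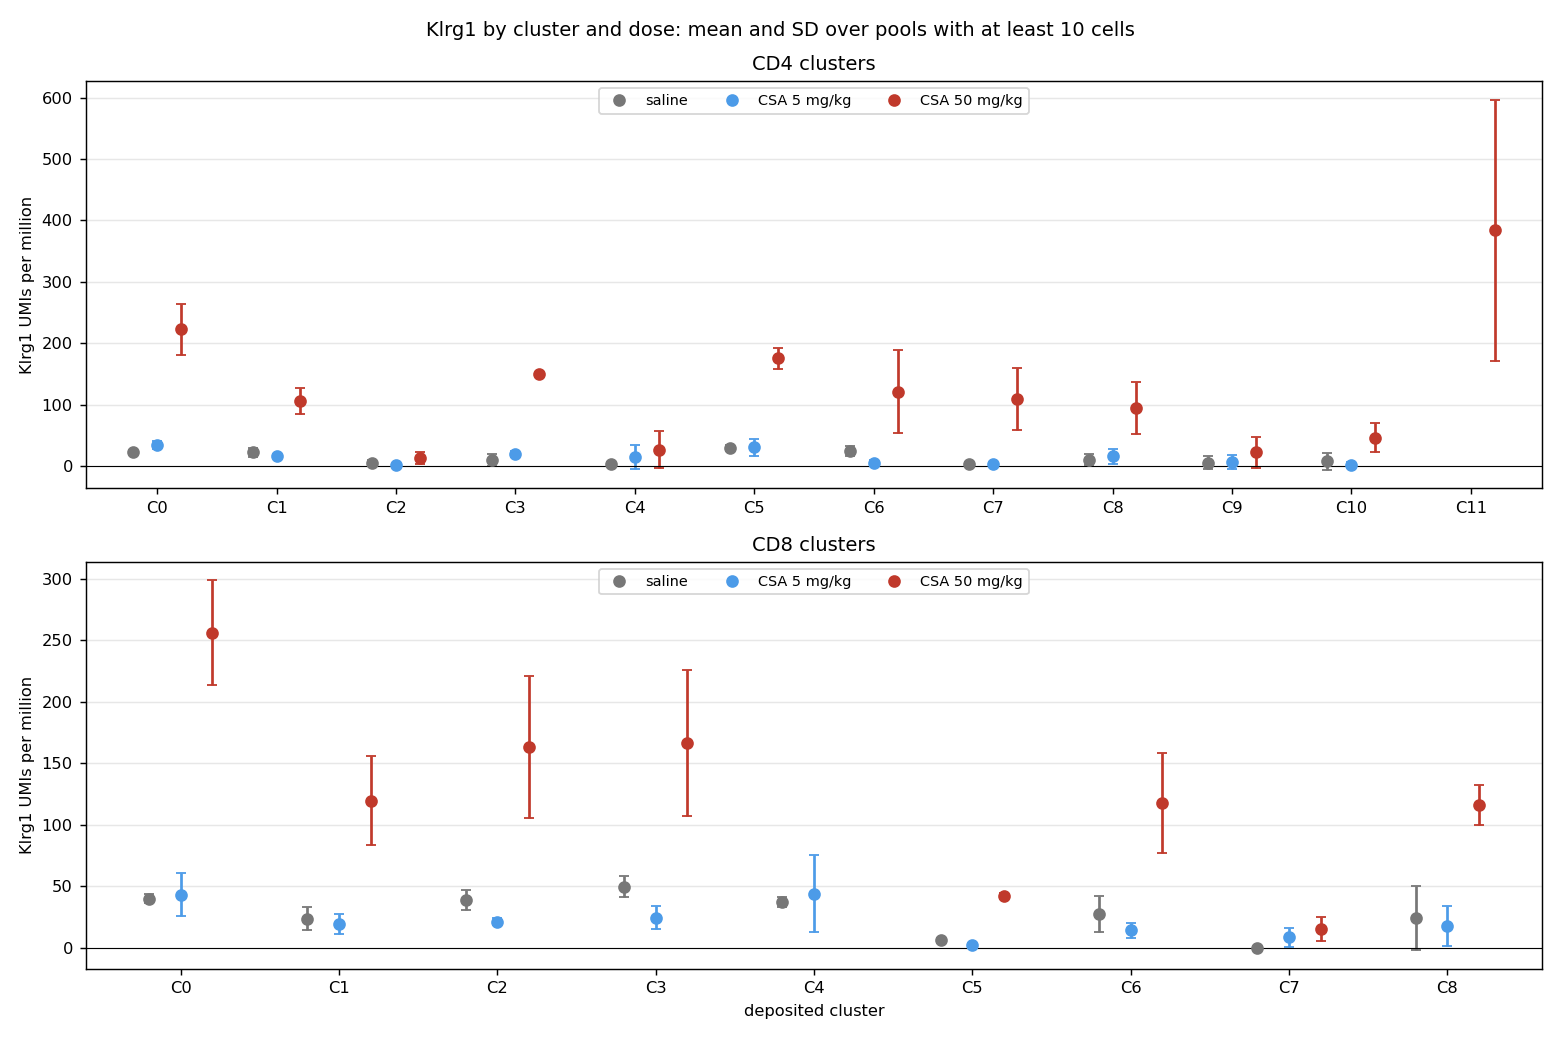
Klrg1 CPM by deposited cluster and dose, mean ± SD over pools in which it held 10 or more cells, shown where 2 or more pools qualify. All 11 CD4+ and 8 CD8+ clusters with both groups stand higher at 50 mg/kg than with saline. At that dose the Tcf7hi and naive clusters lie below effector clusters C0 and C1.

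Tested within clusters at 50 mg/kg, Klrg1 was called higher in 6 of 7 CD4+ clusters and in 7 of 7 CD8+ clusters where its counts sufficed. Over all genes in those clusters 15.6% and 22.7% were called higher. A gene could pass the count filter of a cluster through the pools of 1 group alone, here and for the other receptors below. Which clusters were tested therefore depends in part on the change. The change was 3.68 ± 0.16 in CD4+ C0 (12.9-fold, adjusted p = 7.03e-25, edgeR), 3.84 ± 0.26 in CD4+ cycling C3, 3.25 ± 0.14 in CD8+ C0 and 3.21 ± 0.56 in CD8+ Tcf7hi C5. The lowest changes were 2.15 ± 0.21 in CD8+ cycling C3 and 2.29 ± 0.65 in CD4+ cycling C6, the latter with 34 cells at 50 mg/kg and an adjusted p of 0.0534. At 5 mg/kg Klrg1 was called in 1 of 7 CD4+ clusters (C0, 0.78 ± 0.28, adjusted p = 0.0490), where 8.22% of all genes were called higher, and in 0 of 8 CD8+ clusters (11.6%). No CD8+ cluster had an unadjusted p under 0.05 at that dose, and DESeq2 called none in either lineage. With cluster shares held at those of saline pools, the log2 ratio of Klrg1 CPM was 2.86 in CD4+ (3.04 as found) and 2.18 in CD8+ T cells (2.12 as found). At 5 mg/kg in CD8+ T cells it was -0.26 with shares held and -0.83 as found.

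The other rising receptors also rose inside clusters, and some rose where Klrg1 stayed low. Klrk1 was called higher at 50 mg/kg in 8 of 9 CD4+ and 7 of 8 CD8+ clusters tested, Klrc1 in 8 of 9 and 8 of 8, and Klrd1 in 6 of 10 and 8 of 8. These calls use TMM scaling. Without it, the mean CPM of Klrc1 was above saline in 6 of the 8 CD8+ clusters and below it in 2. Over all genes in the clusters where each was tested, the shares called higher in CD4+ T cells were 14.8% for Klrk1, 15.1% for Klrc1 and 14.9% for Klrd1, and in CD8+ T cells 21.3% for each. In CD4+ Tcf7hi precursor-like cells (C2), Klrd1 went from 31.0 ± 10.6 to 212 ± 41.8 CPM (2.88 ± 0.20), Klrk1 from 21.5 ± 4.84 to 107 ± 18.5 (2.45 ± 0.24) and Klrc1 from 28.1 ± 11.2 to 128 ± 10.9 (2.34 ± 0.23). In the same cells Klrg1 went from 4.79 ± 4.87 to 13.4 ± 10.2 CPM, too low to test. In CD4+ Cd226lo effectors (C1) Klrd1 did not pass (-0.18 ± 0.12, adjusted p = 0.320), while Klrc1 rose by 0.78 ± 0.12. Follicular helper cells (C4) numbered 45 at 50 mg/kg and held Klrk1 at 151 ± 28.9 CPM, from 22.0 ± 7.30 with saline.

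In CD8+ T cells the widest rises of Klrd1 and Klrk1 among the clusters tested were in C8, which the study named exhausted and in which Ifng, Ccl3 and Ccl4 were highest, from 219 ± 63.5 to 743 ± 22.6 CPM (2.18 ± 0.20) and from 120 ± 10.3 to 407 ± 14.0 CPM (2.17 ± 0.18). Naive CD8+ T cells (C7) already carried Klrd1 at 262 ± 53.7 CPM with saline and held 440 ± 27.7 at 50 mg/kg (0.72 ± 0.17, adjusted p = 0.00691). The call for Klrc1 in CD8+ effectors (C0) and in cycling C3 depends on scaling. Its CPM in C0 was 500 ± 42.2 with saline and 489 ± 21.0 at 50 mg/kg, although the TMM-scaled change of 0.54 ± 0.07 was called. In C3 its CPM fell from 299 ± 13.8 to 261 ± 8.86, although the TMM-scaled change of 0.25 ± 0.07 was called higher.

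Among the falling receptors, Klrc2 was lower at 50 mg/kg in 3 of 4 CD8+ clusters tested (26.8% of all genes there), and Klrb1c in 3 of 3 (24.4%). These clusters could pass the count filter through pools of saline or 5 mg/kg alone. Klrc2 in CD8+ C0 went from 54.8 ± 2.18 to 12.7 ± 3.47 CPM (-1.61 ± 0.25). Klrb1c in the same cells went from 23.1 ± 6.99 CPM with saline to 30.0 ± 17.4 at the lower dose and 1.70 ± 0.179 at 50 mg/kg (-3.08 ± 0.51), where 5 UMIs were left in 560 cells. Klre1 was higher in all 3 CD8+ clusters tested at the lower dose (16.6% of all genes there) and in 2 of 3 at 50 mg/kg (28.1%), with 2.81 ± 0.47 in C0. With cluster shares held, the fall of Klrc2 in CD8+ T cells at 50 mg/kg was -1.74 (as found -1.75).

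More cells held Klrg1 UMIs at 50 mg/kg, also at equal depth. Klrg1 UMIs were found in 3.66% ± 0.955 of CD4+ cells with saline, 4.93% ± 0.314 at the lower dose and 32.9% ± 2.37 at 50 mg/kg (SD, n = 3 pools). The shares in CD8+ T cells were 10.8% ± 0.843, 8.43% ± 1.81 and 44.4% ± 7.77. Since depth differed between groups, cells were also thinned to 2000 UMIs each, which left out 395, 452 and 80 CD4+ cells and 121, 83 and 8 CD8+ cells of lower depth. The thinned shares were 2.71%, 2.36% and 17.1% in CD4+ and 5.65%, 3.45% and 22.8% in CD8+ T cells. In the naive clusters, which should lack KLRG1, the thinned share at 50 mg/kg was 1.52% of CD4+ and 2.38% of CD8+ cells (2.64% and 4.24% unthinned), at median depths of 3144.5 and 4995 UMIs. The thinned means came from 1 pool per lineage, at 4.55% of 22 CD4+ and 7.14% of 56 CD8+ cells. Every naive saline pool had a thinned share of 0%. Without thinning, and so with the depth differences between groups, a cell with Klrg1 held 1.72 ± 0.230 UMIs with saline and 2.82 ± 0.0444 at 50 mg/kg in CD4+ T cells, and 1.57 ± 0.106 and 2.70 in CD8+ T cells.

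Klrk1 and Klrd1 gave a like picture in CD8+ T cells. The thinned share of CD8+ cells with Klrk1 was 23.1% with saline, 23.5% at the lower dose and 40.6% at 50 mg/kg, and in CD4+ cells it was 5.31%, 3.72% and 13.4%. For Klrd1 the thinned share of CD8+ cells was 31.9%, 34.9% and 59.5%, and that of naive CD8+ cells 30.7%, 38.6% and 50.6%. In naive CD4+ cells, which came from the same captures, it was 8.74%, 12.9% and 3.84%. For Klrc1 the thinned share was 14.3%, 14.6% and 27.2% in CD4+ cells and 41.9%, 35.6% and 45.2% in CD8+ cells. As a description of thinned cells at 50 mg/kg, Klrd1 was found in 32.3% ± 1.31 of CD4+ cells with Klrc1 and in 18.4% ± 1.66 of those without it. The share with Klrd1 was nearly equal in cells with and without Klrg1. It was found in 22.8% ± 1.26 of CD4+ cells with Klrg1 and 22.1% ± 1.63 of those without, and in 59.9% ± 5.63 and 59.6% ± 2.18 of CD8+ cells. In CD8+ cells with and without Klrg1, the share with Klrc1 was 50.9% ± 1.98 and 43.7% ± 3.91 and that with Klrk1 47.9% ± 1.89 and 38.4% ± 2.13, both apart by more than 1 SD. In CD4+ cells Klrc1 was found in 31.5% ± 2.85 of those with Klrg1 and 26.2% ± 1.24 of those without, and Klrk1 in 14.9% ± 4.03 and 13.2% ± 1.70.

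**Figure D4:**
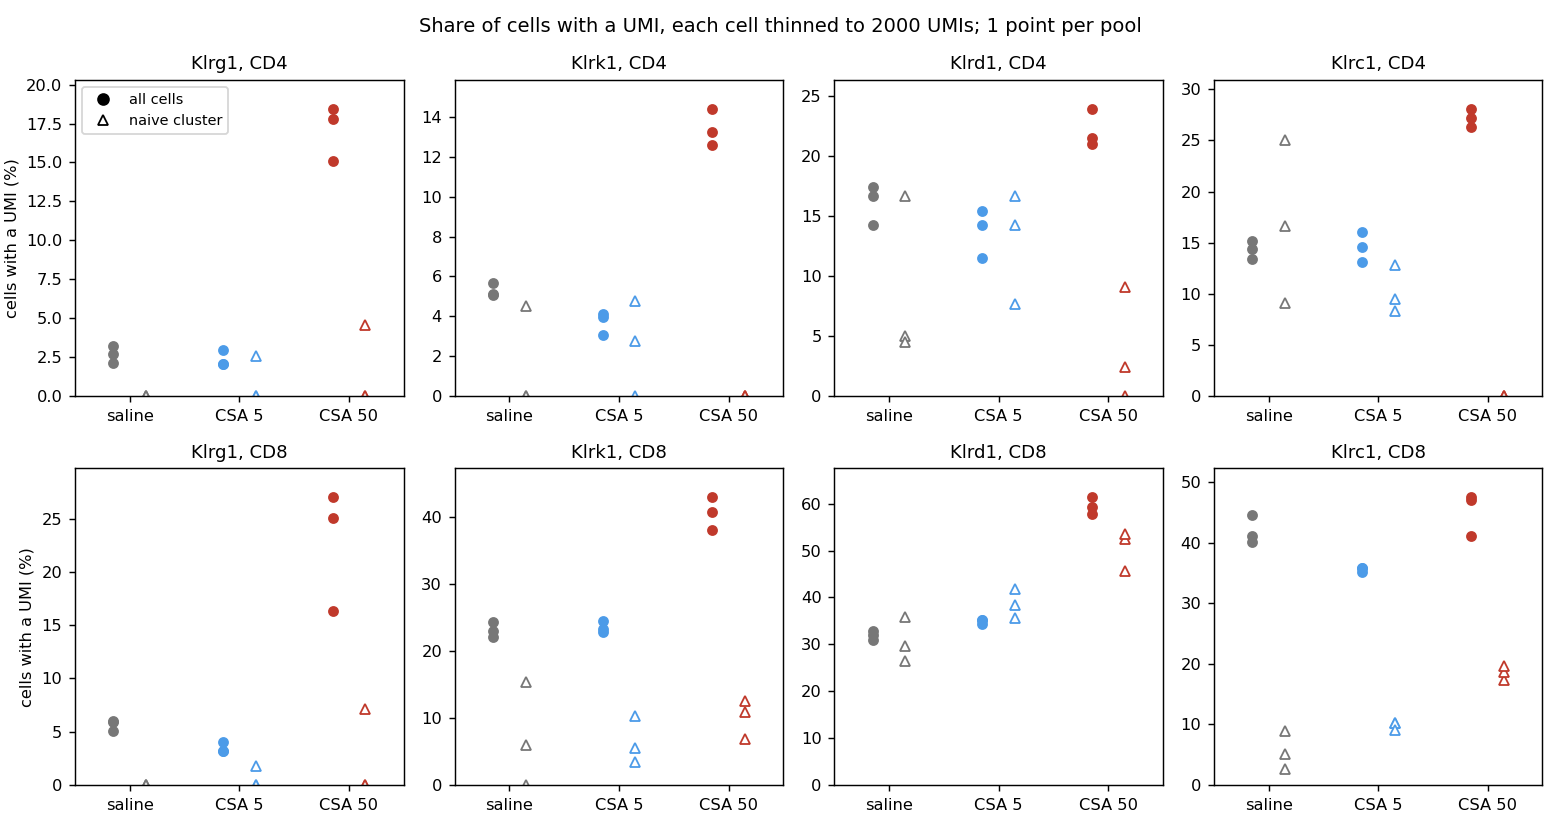
Share of cells with at least 1 UMI after thinning to 2000 UMIs per cell, for each pool, in all cells of a lineage (circles) and in its naive cluster (triangles). The share with Klrg1 rises to a mean of 17.1% in CD4+ and 22.8% in CD8+ T cells at 50 mg/kg. Naive cells have 0% in each saline pool and means of 1.52% and 2.38% at 50 mg/kg, from 1 pool per lineage.

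Clonal expansion was compared within pools, between cells whose clonotype was seen in 2 or more cells of the pool and cells with a clonotype seen once. The difference of Klrg1 did not pass the test, at -0.05 ± 0.10 in CD4+ (adjusted p = 0.772) and -0.08 in CD8+ T cells (adjusted p = 0.682, edgeR). Klrc1 was the only receptor called in CD4+ T cells (18.8% of all genes). It was higher in expanded cells by 0.34 ± 0.07 (adjusted p = 0.000483) and in 8 of 9 pools, for example 239 ± 36.3 against 206 ± 13.1 CPM at 50 mg/kg. Among CD8+ T cells 3 receptors were called, each lower in expanded cells (15.1% of all genes were called in either direction). Klrd1 was lower by 0.38 ± 0.05 (adjusted p = 1.67e-05) and Klrk1 by 0.32 ± 0.05 (adjusted p = 7.50e-05), both in all 9 pools, and Klrb1c by 0.83 ± 0.23 (adjusted p = 0.0136) with 2 of 9 pools in the other direction. Within saline pools, expanded CD8+ cells held Klrd1 at 125 ± 8.27 CPM and single ones at 203 ± 17.2, and at 50 mg/kg the gap was -0.18 ± 0.05, which missed the threshold (adjusted p = 0.0722). Within the 5 mg/kg pools Klrg1 was lower in expanded cells, at 9.16 ± 1.26 against 19.1 ± 3.10 CPM in CD4+ (-1.04 ± 0.31, adjusted p = 0.0257) and 14.1 ± 5.36 against 24.5 ± 6.37 CPM in CD8+ T cells (-0.85 ± 0.22, adjusted p = 0.0178). Whether these differences vary between treatment groups was not tested.

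The 123, 130 and 27 TEa cells of the saline, 5 mg/kg and 50 mg/kg groups were summed over pools and have no replicate check. Klrg1 in them was 18.9 CPM with saline (95% exact Poisson interval 9.04 to 34.7, from 10 UMIs), 6.53 at 5 mg/kg (2.12 to 15.2) and 78.3 at 50 mg/kg (46.4 to 124, from 18 UMIs in 4 cells). These intervals cover counting error only. Klrc1 was at 111, 111 and 100.1 CPM.

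Of the other receptors of the NK gene complex, 24 of 29 listed were in the table and few were abundant enough to test. In CD4+ T cells at 50 mg/kg, 1 of 4 tested was higher (34.7% of all genes) and 2 were lower (35.8%), with a median change of -0.58 against -0.01 over all genes. In CD8+ T cells 3 of 8 were higher (37.1%) and 3 lower (36.9%), with a median of 0.24 against 0.00. Klra3 (Ly49C, an inhibitory receptor for class I MHC) rose by 2.43 ± 0.23 in CD8+ T cells. Klrb1b, which encodes an inhibitory relative of NK1.1, changed by -4.30 ± 0.60 there, and Klrb1f by -1.03 ± 0.24 in CD4+ T cells. Clec2d and Clec2i, ligands of the NKR-P1 receptors, moved apart in both lineages. Clec2d rose by 0.38 ± 0.05 in CD4+ and 0.50 ± 0.04 in CD8+ T cells, and Clec2i changed by -2.43 ± 0.09 and -2.14 ± 0.09.

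Ligands and signalling partners changed in both directions. Of all genes tested, 34.7% rose and 35.8% fell in CD4+ and 37.1% rose and 36.9% fell in CD8+ T cells. Of 4 ligand genes tested in each lineage, 2 rose and 2 fell, with medians of -0.04 in CD4+ and -0.31 in CD8+ T cells. H2-T23, the ligand of CD94 with NKG2A or NKG2C, rose by 0.45 ± 0.04 and 0.50 ± 0.05, and Ulbp1, a ligand of NKG2D, changed by -0.45 ± 0.12 and -1.11 ± 0.12. Of 18 adaptor and proximal signalling genes tested, 5 rose and 9 fell in CD4+ T cells (median -0.11) and 7 rose and 7 fell in CD8+ T cells (median -0.08). Hcst, the DAP10 adaptor of NKG2D, rose by 1.43 ± 0.04 in CD4+ (adjusted p = 2.86e-17) and 1.86 ± 0.05 in CD8+ T cells (adjusted p = 5.08e-16, edgeR). Lck, the kinase of T cell receptor signalling, rose by 0.66 ± 0.04 and 0.86 ± 0.04. Ptpn11, the SHP-2 phosphatase that inhibitory receptors recruit, changed by -1.78 ± 0.06 and -1.58 ± 0.07, Plcg2 by -1.05 ± 0.35 in CD4+ and Syk by -1.54 ± 0.31 in CD8+ T cells.

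Genes that usually accompany KLRG1 on effector cells moved in both directions, as all genes did (70.5% called in CD4+ and 74.0% in CD8+ T cells, about as many higher as lower). Of the effector list, 9 of 20 rose and 10 fell in CD4+ T cells (median -0.09), and 10 of 21 rose and 8 fell in CD8+ T cells (median 0.10). Anxa1 rose by 2.58 ± 0.08 and 3.26 ± 0.08, S100a4 by 2.47 ± 0.06 in CD4+ and Ccl5 by 3.01 ± 0.05 in CD8+ T cells. Cx3cr1, a chemokine receptor of KLRG1-high effector cells, changed by -5.91 ± 0.39 and -3.34 ± 0.12, and Zeb2, a transcription factor of terminal effectors, by -2.52 ± 0.20 and -1.93 ± 0.13. Of 15 memory and precursor genes, 8 rose and 5 fell in CD4+ T cells (median 0.40) and 9 rose and 4 fell in CD8+ T cells (median 0.43). Ly6c2 rose by 3.66 ± 0.09 and 2.65 ± 0.10, and Eomes by 1.75 ± 0.14 in CD4+ T cells. Tcf7 changed by -1.82 ± 0.09 and -1.07 ± 0.13, Il7r by -1.04 ± 0.09 in CD4+ and Bcl2 by -1.05 ± 0.11 in CD8+ T cells.

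Over 58 sums of a cluster in a group, both lineages together, the genes most like Klrg1 among 6025 were Anxa1 (Pearson r of log2 CPM 0.84), Emp3 (0.80) and Anxa6 (0.78). Those most like Klrk1 were Itgax (0.91), Klrc1 (0.90) and Klrd1 (0.89), those most like Klrd1 were Klrk1 (0.89), Ccl5 (0.86) and Itgax (0.84), and those most like Klrc1 were Itgax (0.92), Klrk1 (0.90) and St3gal6 (0.89). Klrg1 was not among the 3 nearest genes of Klrk1, Klrd1 or Klrc1, nor were they among its own, and Klrc2, Klre1 and Klrb1c were not compared. Sums of a group share a capture, and the r values are given as a description. The sums span the 3 groups, so a change with dose is part of the likeness, and the changes of these genes at 50 mg/kg are no separate result. They were 1.64 in CD4+ and 1.39 in CD8+ T cells for Emp3, and 1.08 and 0.83 for Itgax.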

How the data were processed

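The deposited counts were UMIs per gene and cell that the authors made from 10x 5′ libraries. The submitters' processing notes name Cell Ranger, Seurat 3.0.0 and mm10, with no role or order. The deposited table of cells gave pool, treatment, cluster, clonotype, TEa mark and the fraction of mitochondrial UMIs, all as the authors made them, and its dead-cell and doublet marks were all negative, so such cells had been removed before deposit. Summed counts equalled the deposited UMI number in all 21204 cells. CD8+ clusters are numbered 1 to 9 there and were matched to the study's C0 to C8 by their order and markers, since the table does not pair the numbers with names.

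Counts were summed per pool and lineage, without TEa cells, and fitted under R 4.3.3 with edgeR 4.0.16, using filterByExpr, TMM, 1 model of all 9 pools and quasi-likelihood F tests, at a Benjamini-Hochberg threshold of 0.05 over all genes tested. 10568 genes were tested in CD4+ and 10841 in CD8+ T cells. SE is the log2 change divided by the square root of F. Lineages and clonotype classes were compared with pool as a block. Cluster fits used pools with at least 10 cells. Both dose comparisons share the saline pools. With 3 pools that share a capture, p-values measure the spread between pools only. Depth is given as total UMIs per pool.

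The receptors, gene lists and tests were chosen with earlier results of these data known. All 7 receptors are named, with the 3 genes most like each receptor that had a mean of at least 20 CPM in a lineage, and of each list the 2 largest changes in each direction at 50 mg/kg among those past the threshold. Of these, 1 gene is not reported here. Lists of NK gene complex receptors, ligands, adaptors, effector genes, memory and precursor genes, NK cell, innate-like and erythroid markers were used. Of 10 innate-like genes, 3 were tested and lower in CD4+ T cells at 50 mg/kg (median -1.86), and of 6 tested in CD8+ T cells, 2 were higher and 2 lower. Of NK cell markers, 2 of 8 tested were higher and 3 lower in CD4+, and 6 of 11 higher and 2 lower in CD8+ T cells. All 4 erythroid genes tested were higher in each lineage. Alternatives were DESeq2 1.42.0, library size scaling, no filter, only the groups compared, the replicate block, TEa cells included, only cells holding a clonotype, only cells of 2000 UMIs or more, no cycling clusters, clonotypes of at least 3 cells and leaving out each pool. Within-group clonotype fits, CD4+ cells without Cd8b1 UMIs and held cluster shares were chosen after seeing the data. The fits were tested on simulated data. Promoters came from RefSeq, with 5 of 7 receptors matched.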

Additional observations from a re-analysis of the deposited data

Results flagged for a closer look

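Each result here is a difference between CD8+ and CD4+ T cells in the change against saline, tested as an interaction in edgeR with pool as a block (log2, CD8+ minus CD4+, n = 3 pools per group). At 50 mg/kg, Klrg1 differed by -0.87 (rises of 2.64 and 3.46, adjusted p = 0.00102), Klrk1 by -0.43 (1.53 and 1.93, adjusted p = 0.000702) and Klrc1 by -0.93 (0.69 and 1.60, adjusted p = 5.80e-10), so these rose less in CD8+ T cells. Klrd1 differed by 0.85 (1.91 and 1.03, adjusted p = 2.20e-08) and rose more in CD8+ T cells. Klre1 differed by 1.95 (adjusted p = 0.0172), with 2 to 11 UMIs per CD4+ pool. Klrc2 differed by -1.19 (-1.21 and -0.05, adjusted p = 0.000348), with counts that are uncertain through sequence shared with Klrc1 or Klrc3.

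At 5 mg/kg, Klrb1c differed by 1.28 (0.94 in CD8+ and -0.36 in CD4+ T cells, adjusted p = 0.0395), Klrd1 by 0.35 (0.66 and 0.28, adjusted p = 0.0189) and Klrc1 by -0.27 (0.12 and 0.37, adjusted p = 0.0495). The last of these stood at the threshold. Leaving out any of 4 pools ended the call for Klrb1c, with adjusted p of up to 0.233.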

How the results depend on the processing

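At 50 mg/kg against saline, the calls of Klrg1, Klrk1, Klrd1, Klrc1 and Klrb1c held in all 21 settings tried in CD4+ T cells, and with Klre1 and Klrc2 in all 19 in CD8+ T cells. Klrg1 ranged from 3.02 to 3.56 and from 2.11 to 2.96. The rise of Klrc1 in CD8+ T cells depended more on the settings, with a range from 0.16 to 0.76. Results at 5 mg/kg depended on the settings. With library size scaling, which moved the median gene by -0.37 and -0.45 in CD4+ and by -0.43 and -0.53 in CD8+ T cells at 5 and 50 mg/kg, the change at 5 mg/kg turned to -0.29 for Klrk1 and -0.081 for Klrd1 in CD4+ T cells, and to -0.017 for Klrk1 and -0.30 for Klrc1 in CD8+ T cells. This scaling splits all called genes into 926 higher and 5718 lower at 5 mg/kg (2758 and 2709 with TMM) and 1599 and 6239 at 50 mg/kg (3669 and 3785) in CD4+ T cells. Among CD8+ T cells the splits were 1180 and 6270 (3241 and 3282) and 1690 and 6794 (4021 and 4003). Between doses they were 1426 and 2877 (2098 and 2255) in CD4+ and 1307 and 3312 (2167 and 2276) in CD8+ T cells, and for the lineage differences 183 and 277 (233 and 169) at the lower dose and 766 and 1707 (1026 and 1147) at 50 mg/kg. DESeq2 changed the number of genes called from 4445 to 1933 for CD8+ against CD4+ in saline, from 402 to 264 and from 2173 to 658 for the lineage differences at 5 and 50 mg/kg, and from 1694 to 1028 and from 1393 to 696 for clonotypes in CD4+ and CD8+ T cells.

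The 3 receptors called at 5 mg/kg in CD4+ T cells became 1 without cells holding Cd8b1 UMIs and 0 without cycling clusters. For Klrg1 there, the call was also lost with TEa cells included, with only cells holding a clonotype, with library size scaling, and without CSA 5 mg/kg replicate 1 or 2 or saline replicate 1 or 3 (0.03 to 0.52 over all settings). In CD8+ T cells Klrg1 at 5 mg/kg became called with library size scaling (-0.80), with no filter (-0.39), with only the groups compared (-0.37) and without CSA 50 mg/kg replicate 3 (-0.38). The lineage difference was called for 3 receptors at the lower dose and 6 at 50 mg/kg, and with DESeq2 for 1 and 3. Leaving out 1 pool gave 0 to 4 at 5 mg/kg (0 without CSA 5 mg/kg replicate 2 or saline replicate 1, and 1 without CSA 5 mg/kg replicate 1 or saline replicate 2 or 3). The 1 receptor called for clonotypes in CD4+ T cells became 2 with at least 3 cells per clonotype, 2 within 5 mg/kg pools and 0 within saline pools, and 1 to 2 when 1 pool was left out (2 without saline replicate 2 or CSA 50 mg/kg replicate 2 or 3). The 3 in CD8+ T cells became 0 within 50 mg/kg pools. The single CD4+ cluster with Klrg1 called at 5 mg/kg became 0 with DESeq2 or library size scaling, and 0 to 1 when 1 pool was left out (1 only without CSA 50 mg/kg replicate 1 or 3). The 0 CD8+ clusters became 2 with library size scaling or no filter, and 0 to 2 when 1 pool was left out (2 without CSA 50 mg/kg replicate 3). Held cluster shares gave 2.86 in place of 3.04 in CD4+ T cells at 50 mg/kg and -0.26 in place of -0.83 in CD8+ T cells at 5 mg/kg. Thinning moved the shares with Klrg1 to 2.36% and 17.1% in CD4+ T cells at 5 and 50 mg/kg and to 5.65%, 3.45% and 22.8% in CD8+ T cells. Beyond fewer cells or pools in some of these settings, the cause was not tested.

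Hashtag numbers did not pair the pools. Correlations of same-numbered pools lay between -0.078 and 0.048 in CD4+ and between -0.033 and 0.063 in CD8+ T cells, and 2 of 9 and 5 of 9 correlated best with their own number. With the replicate block, Klrg1 changed by 0.40 and 3.45 in CD4+ and by -0.32 and 2.62 in CD8+ T cells at 5 and 50 mg/kg, 7433 and 7977 genes were called at 50 mg/kg in place of 7454 and 8024, and no count of receptors changed. Genes with 2 to 14 UMIs per pool (Klrb1c at 50 mg/kg, Klre1 in CD4+ T cells) are limited by depth.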
